A study of Mus musculus with 9 samples.

Results

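The Bcl2 family decides whether the outer membrane of the mitochondrion is breached during apoptosis. Effectors (Bax, Bak1 and, by another route, Bok) form pores through which cytochrome c escapes and starts caspase activation. Survival members (Bcl2, Bcl2l1, Mcl1) hold effectors and their activators in check, and BH3-only members (Bcl2l11, Bid, Bad, Bbc3, Pmaip1, Bik) activate the effectors or occupy the survival members. Much of this control acts on the proteins, by cleavage (Bid), phosphorylation (Bad) or rapid turnover (Mcl1), none of which RNA shows.

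The 10 genes described here are Bax, Bak1, Bcl2, Bcl2l1, Mcl1, Bcl2l11, Bid, Bad, Bbc3 and Pmaip1, taken by symbol from a table of 54532 genes. All 10 had 1 row each. There were 9 kidney libraries, 3 in each of 3 groups, all from c57BL/6j males at an age of 4 months. Ground controls (GC1 to GC3) were not unloaded and received no treatment. Unloaded mice (HU1 to HU3) were hindlimb-unloaded, a model of disuse in which the hind limbs are lifted off the ground, and received vehicle. Treated mice (PBA1 to PBA3) were hindlimb-unloaded and received 4-phenylbutyric acid (4-PBA, a chemical chaperone) at 100 mg per kg per day by intraperitoneal injection. As ground controls received no vehicle, the first comparison does not separate unloading from vehicle. The unloading period is not given in the labels, and each library was made from a piece of renal tissue with no cell sorting. The labels do not say that each library came from its own animal, so the p-values measure the spread between these libraries, which may be partly technical.

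The libraries were uneven, and the deposited scale does not follow their total reads. The library size it implies was 0.953 to 1.58 times the total reads in ground controls, 0.410 to 0.810 times in unloaded mice and 0.711 to 1.71 times with 4-PBA, so unloaded values stand higher against ground controls than they would with scaling to total reads. Against reads outside the mitochondrial genome it was 1.84 to 1.89, 1.98 to 2.34 and 1.79 to 2.16 times. Reads outside the mitochondrial genome numbered 5780141 to 12893802 in ground controls, 1568888 to 3037972 in unloaded mice and 2887586 to 12824889 with 4-PBA, and the mitochondrial share was 14.8% to 49.7%, 63.7% to 79.3% and 13.7% to 67.1%. Pseudogenes took 1.16% to 1.76% of reads outside the mitochondrial genome in ground controls, 3.73% to 7.54% in unloaded mice and 0.955% to 4.83% with 4-PBA, PBA3 the highest of its group. PBA3 also had the 67.1%, inside the range of the unloaded libraries, and GC3 the 49.7%. The summed level of 10 proximal tubule markers was 48888 to 59855 FPKM (reads per kilobase of gene and per 1000000 of a library size set by the authors) in ground controls, 2426 to 3171 FPKM in unloaded mice and 8354 to 57181 FPKM with 4-PBA. That sum is mostly Kap, an androgen-regulated kidney gene, at 47235 to 58419 FPKM in ground controls and 2241 to 2932 FPKM in unloaded mice, but all 10 markers were detected in each library and each was lower in every unloaded library than in every ground control. In bulk tissue, fewer cells of a type and less RNA per cell cannot be told apart.

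The members share a short stretch, the BH3 core, through which they bind each other, and it is shown here because it is the sequence that effectors, survival and BH3-only members have in common. The coding sequence of 1 transcript a gene (GENCODE mouse release 21, build mm10) was searched in frame on the coding strand for a leucine codon, any 3 codons, a glycine, alanine or serine codon and an aspartate codon. Each stretch runs from 4 codons before the leucine, 45 bases in all, with the 6 codons of the match in capitals. Bok and Bik, the other family genes that changed, follow the members. Pmaip1 is not printed.
Bax: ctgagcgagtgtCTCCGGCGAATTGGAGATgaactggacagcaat
Bak1: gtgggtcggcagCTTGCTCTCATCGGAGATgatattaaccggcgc
Bcl2: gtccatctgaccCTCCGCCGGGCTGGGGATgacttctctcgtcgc
Bcl2l1: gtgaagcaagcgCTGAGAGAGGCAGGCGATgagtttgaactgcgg
Mcl1: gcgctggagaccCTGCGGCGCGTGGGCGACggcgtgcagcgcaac
Bcl2l11: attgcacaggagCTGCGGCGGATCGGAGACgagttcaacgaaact
Bid: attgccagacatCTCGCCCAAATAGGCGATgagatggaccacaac
Bad: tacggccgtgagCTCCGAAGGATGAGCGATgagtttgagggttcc
Bbc3: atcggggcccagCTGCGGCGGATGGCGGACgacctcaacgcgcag
Bok: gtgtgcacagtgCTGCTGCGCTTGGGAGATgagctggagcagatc
Bik: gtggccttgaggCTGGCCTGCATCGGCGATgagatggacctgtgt

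The match was found in all 10 members, against 33.6% of 21767 genes scanned, at 1 place in each gene printed and at 2 in Pmaip1. The pattern was written to fit the BH3 core, with alanine and serine allowed beside glycine. Its presence in the members is therefore no result of the search. The fifth codon was glycine in 8 of the 10 members, a form found in 13.2% of genes scanned. It was serine in Bad and alanine in Bbc3, both BH3-only. The stretches lie in exon 3 of 6 of Bax (chr7:45465991-45466035, minus strand), exon 4 of 6 of Bak1 (chr17:27022525-27022569, minus), exon 1 of 2 of Bcl2 (chr1:106712569-106712613, minus), exon 2 of 3 of Bcl2l1 (chr2:152829691-152829735, minus) and exon 1 of 3 of Mcl1 (chr3:95659424-95659468, plus). Among BH3-only genes they lie in exon 3 of 4 of Bcl2l11 (chr2:128147138-128147182, plus), exon 4 of 6 of Bid (chr6:120897283-120897327, minus), exon 3 of 4 of Bad (chr19:6950780-6950824, plus), exon 3 of 4 of Bbc3 (chr7:16313761-16313805, plus) and exon 3 of 5 of Bik (chr15:83543072-83543116, plus). In Bok the stretch is split by an intron between exons 2 and 3 of 5 (chr1:93686645-93689176, plus). All are coding sequence.

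In ground control kidney the members fell into a high and a low set. Bax was at 18.0 ± 2.89 FPKM, Mcl1 at 15.5 ± 0.712 FPKM, Bcl2l1 at 11.9 ± 0.270 FPKM, Bad at 9.15 ± 2.09 FPKM and Bid at 7.42 ± 2.05 FPKM (SD, n = 3 each). Bak1 followed at 1.93 ± 0.712 FPKM, then Bcl2 at 0.921 ± 0.159, Bbc3 at 0.906 ± 0.288, Pmaip1 at 0.720 ± 0.530 and Bcl2l11 at 0.536 ± 0.107 FPKM (SD, n = 3 each). Neighbours in this order that overlapped between libraries were Bax and Mcl1, Bad and Bid, Bcl2 and Bbc3, Bbc3 and Pmaip1, and Pmaip1 and Bcl2l11. The other neighbours did not overlap. At rest, Bax RNA thus stood at the level of the most abundant survival transcript, and Bcl2, the gene the family is named after, was the lowest of the 3 survival transcripts.

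**Figure D1:**
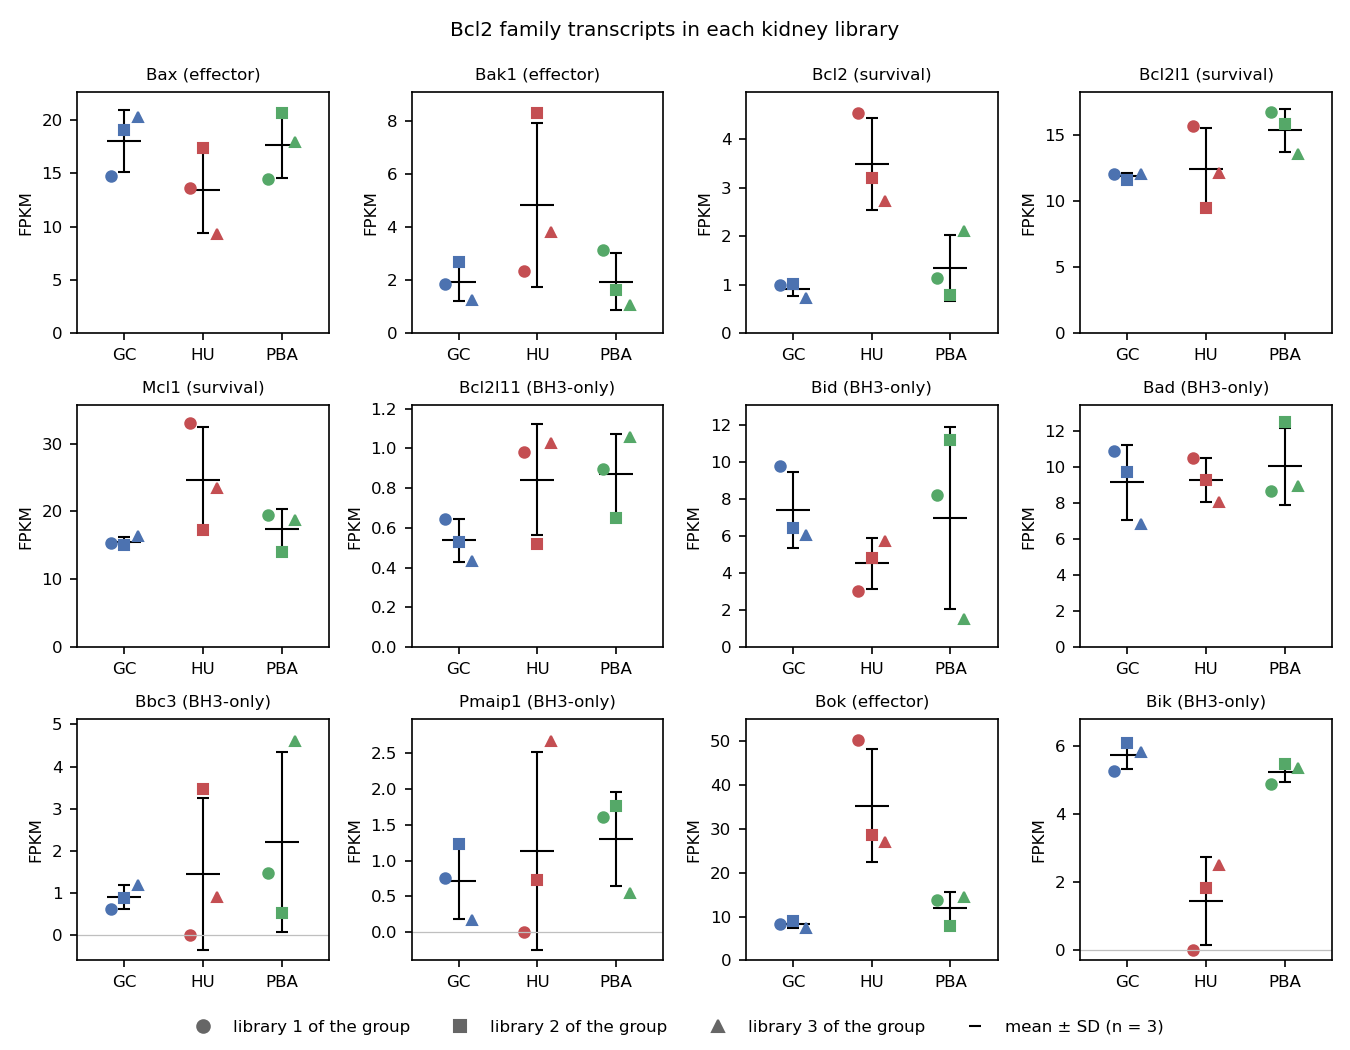
FPKM of the 10 members and of Bok and Bik in each library (points; GC ground control, HU unloaded with vehicle, PBA unloaded with 4-PBA), with the mean and SD of each group of 3 as a bar; each panel has its own linear axis. Bcl2 is at 2.72 to 4.54 FPKM in unloaded libraries and at 0.738 to 1.02 FPKM in ground controls, and Bok and Bik separate these groups in opposite directions.

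Of the members, only Bcl2 changed with unloading in this fit. Bcl2 (ENSMUSG00000057329; chromosome 1, 106538178 to 106714274), the survival protein of the outer mitochondrial membrane, was at 1.00, 1.02 and 0.738 FPKM in GC1 to GC3. It was at 4.54, 3.19 and 2.72 FPKM in HU1 to HU3 and at 1.15, 0.800 and 2.10 FPKM in PBA1 to PBA3. Every unloaded library was above every other library, and PBA3 was the nearest to them. The mean rose 3.78 times, from 0.921 ± 0.159 to 3.48 ± 0.942 FPKM (SD, n = 3 each), and the difference in log2(FPKM + 1), a scale that understates changes of low genes, was 1.21 ± 0.29 (SE; limma adjusted p = 0.0312). These values rest on 74 to 262 reads a library, and the 95% Poisson interval of HU2, the least covered unloaded library with 91 reads, was 2.57 to 3.92 FPKM. Such intervals cover counting error only.

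The Bcl2 call was close to the threshold. It held in 8 of 19 alternative settings, with limma adjusted p from 0.0130 to 0.294 and a positive difference in all 19. It was lost when any 1 of GC1, GC2, GC3, HU1, HU2, HU3 or PBA1 was left out (limma adjusted p = 0.114, 0.0870, 0.105, 0.0643, 0.0518, 0.0501 and 0.0518) and with the mitochondrial share as a covariate (0.218, difference 0.90). With libraries scaled to their total reads the difference was 0.51 (limma adjusted p = 0.294); that scaling moved the median of all genes tested from -0.033 to -0.78, so Bcl2 remained above that median. Without both PBA3 and GC3 the difference was 1.13 (limma adjusted p = 0.0438). The library with the highest mitochondrial share had the lowest Bcl2 value among ground controls (GC3, 0.738 FPKM) and the highest among treated mice (PBA3, 2.10 FPKM).

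Called members numbered 1 of 9 tested, which is near the background: 10.2% of all 12642 genes tested passed in this comparison, 5.32% as higher and 4.90% as lower. That background itself varied: 672 genes rose and 620 fell, but 242 and 2031 with scaling to total reads and 903 and 478 with scaling to reads outside the mitochondrial genome. Called genes in both directions numbered 40 and 29 without GC1, 113 and 117 without GC2, 76 and 50 without GC3 and 1172 and 1188 without PBA3. Bcl2l11 was not tested, since it reached 1 FPKM in fewer than 3 libraries. The median difference of the 9 tested members was 0.11, against -0.033 over all genes tested. Groups did not overlap for Bcl2, Mcl1 (both higher) and Bid (lower), 3 of 9, where 37.7% of all genes tested did not overlap (18.3% higher, 19.4% lower). Both shares are near the background, so neither is a result about the family.

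**Figure D2:**
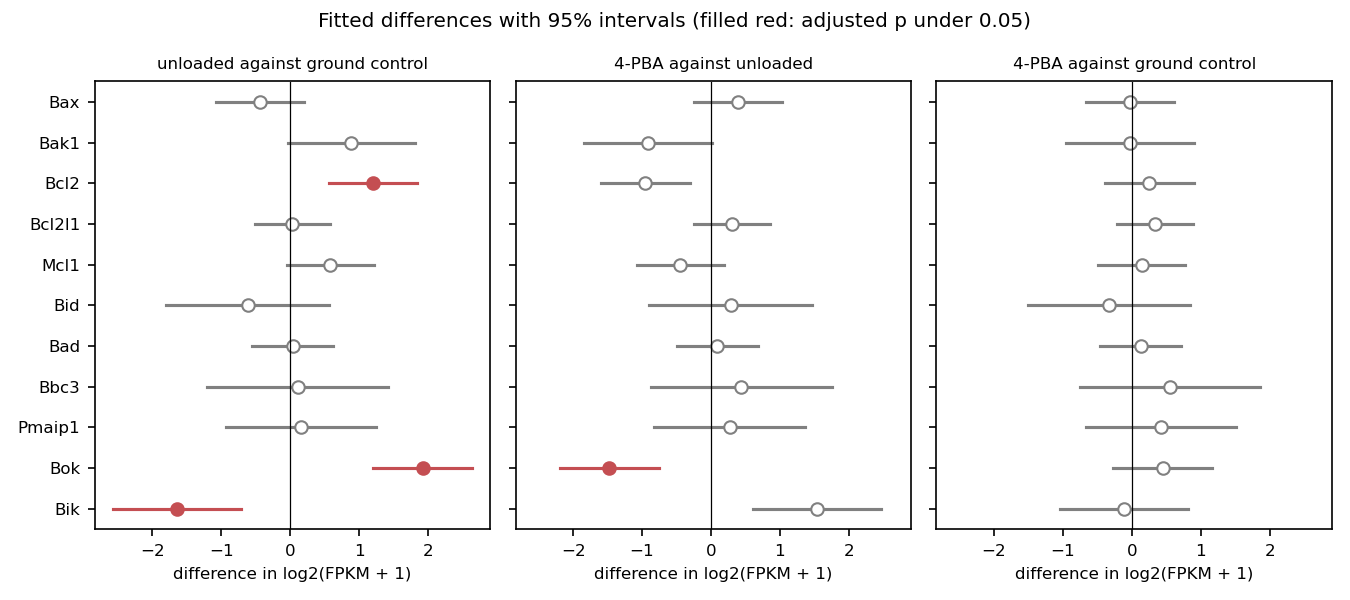
Fitted differences in log2(FPKM + 1) with 95% intervals for the 9 tested members, Bok and Bik in the 3 comparisons; filled red marks a limma adjusted p under 0.05. Bcl2, Bok and Bik pass for unloaded against ground control, Bok alone for 4-PBA against unloaded, and no gene shown for 4-PBA against ground control.

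The effector Bax, which moves from the cytosol to the mitochondrion when activated, was at 14.8, 19.0 and 20.3 FPKM in GC1 to GC3, 13.6, 17.3 and 9.26 FPKM in HU1 to HU3, and 14.4, 20.6 and 17.9 FPKM in PBA1 to PBA3. The groups overlapped, and HU3 was the lowest library. The difference for unloading was -0.43, with a 95% interval of -1.07 to 0.21 (limma adjusted p = 0.333). Bak1, the effector that resides on the mitochondrion, was at 1.86, 2.67 and 1.25 FPKM in GC1 to GC3, 2.37, 8.28 and 3.80 FPKM in HU1 to HU3 and 3.13, 1.63 and 1.07 FPKM in PBA1 to PBA3. HU2 and HU3 were above every other library, HU2 by far the most, while HU1 lay within the range of the ground controls. The Bak1 difference of 0.89 (95% interval -0.038 to 1.81; limma adjusted p = 0.184) did not pass. Bak1 shares 437 exon bases with Ggnbp1 on the opposite strand, which had 0.416 FPKM in HU2, the lowest of the 9 libraries. Whether the authors' counting used strand is not given in the sources used here, so reads of overlapping genes may be mixed.

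Among survival members, Mcl1, a short-lived protein that needs steady transcription, was at 15.3, 15.0 and 16.3 FPKM in GC1 to GC3 and at 33.0, 17.3 and 23.4 FPKM in HU1 to HU3. With 4-PBA it was at 19.4, 14.0 and 18.8 FPKM. Every unloaded library exceeded every ground control, HU2 by the least. The difference was 0.58 (95% interval -0.041 to 1.21; limma adjusted p = 0.194), and -0.42 when scaled to total reads. Bcl2l1, which encodes Bcl-xL, was at 12.0, 11.6 and 12.1 FPKM in GC1 to GC3, 15.7, 9.46 and 12.2 FPKM in HU1 to HU3 and 16.7, 15.8 and 13.5 FPKM in PBA1 to PBA3. Its difference for unloading was 0.034 (95% interval -0.51 to 0.58; limma adjusted p = 0.941), and -0.93 when scaled to total reads, so the direction given for these 2 genes depends on scaling. That scaling moved the median of all genes tested from -0.033 to -0.78.

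Among BH3-only members, Bid, which caspase-8 cleaves to link death receptors to mitochondria, was at 9.77, 6.41 and 6.07 FPKM in GC1 to GC3 and at 3.02, 4.80 and 5.73 FPKM in HU1 to HU3. With 4-PBA it was at 8.20, 11.2 and 1.54 FPKM, so PBA3 was the lowest of all libraries while PBA2 was the highest. The unloaded libraries were below all ground controls, with a difference of -0.62 (95% interval -1.79 to 0.56; limma adjusted p = 0.460). Bid shares 628 exon bases with Bcl2l13 on the opposite strand, itself a family member, which ranged from 0.829 to 2.30 FPKM. Bad, the BH3-only protein that survival signals keep phosphorylated, was at 6.83 to 10.9 FPKM in ground controls, 8.08 to 10.5 FPKM in unloaded mice and 8.70 to 12.5 FPKM with 4-PBA. Its difference for unloading was 0.035, with a 95% interval of -0.55 to 0.62 (limma adjusted p = 0.943) and -0.92 with scaling to total reads, and 524 of its exon bases are shared with Gpr137 on the opposite strand.

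The p53-responsive BH3-only genes were low and erratic. Bbc3, which encodes Puma, was at 0.629, 0.885 and 1.20 FPKM in GC1 to GC3, 0, 3.48 and 0.902 FPKM in HU1 to HU3 and 1.49, 0.534 and 4.61 FPKM in PBA1 to PBA3. Pmaip1, which encodes Noxa, was at 0.757, 1.23 and 0.173 FPKM in GC1 to GC3, 0, 0.729 and 2.67 FPKM in HU1 to HU3 and 1.60, 1.76 and 0.545 FPKM in PBA1 to PBA3. HU1 had 0 reads for both, which allows up to 0.237 FPKM of Bbc3 and 0.190 FPKM of Pmaip1 (3 reads), while HU2 had 23 reads of Bbc3 (95% Poisson interval 2.21 to 5.22 FPKM) and HU3 48 reads of Pmaip1. The libraries of 1 group thus differed beyond counting error, and the groups overlapped for both genes. The differences for unloading were 0.11 for Bbc3 (95% interval -1.20 to 1.42; limma adjusted p = 0.921) and 0.16 for Pmaip1 (-0.93 to 1.24; limma adjusted p = 0.860). The interval of Bbc3 spans more than 1 log2 unit in each direction, so a change of that size was not detectable here.

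Bcl2l11, which encodes Bim, a BH3-only protein held in check by growth factor signals, was at 0.432 to 0.646 FPKM in ground controls, 0.520 to 1.03 FPKM in unloaded mice and 0.652 to 1.06 FPKM with 4-PBA. It had 13 reads in HU2 and 180 in PBA1. Unloaded and ground control libraries overlapped. All 3 treated libraries were above the ground controls, but PBA2 (0.652 FPKM) and GC1 (0.646 FPKM) lay within counting error of each other. Their Poisson intervals were 0.540 to 0.779 FPKM and 0.527 to 0.786 FPKM. Among all genes tested, 8.00% did not overlap between 4-PBA and ground controls. The values of Bcl2l11 itself were not tested.

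Ratios of members within a library do not depend on how libraries are scaled to each other. Bax exceeded Bcl2 by a log2 ratio of 3.88, 4.22 and 4.78 in GC1 to GC3, 1.58, 2.44 and 1.77 in HU1 to HU3, and 3.65, 4.69 and 3.09 in PBA1 to PBA3. In linear terms Bax was 14.7 to 27.5 times Bcl2 in ground controls, 3.00 to 5.43 times in unloaded libraries and 8.52 to 25.7 times with 4-PBA. The unloaded libraries did not overlap with either other group, and PBA3 was the treated library nearest to them. No test is given, as the ratio was chosen with results of these data known.

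The make-up of the survival set is given in the same way. Bcl2 was 2.53% to 3.70% of the summed FPKM of Bcl2, Bcl2l1 and Mcl1 in ground controls, 7.11% to 10.7% in unloaded mice and 2.61% to 6.11% with 4-PBA. Bcl2l1 was 41.4% to 42.5%, 29.5% to 31.7% and 39.3% to 51.7%, and Mcl1 was 53.9% to 56.0%, 57.8% to 62.0% and 45.7% to 54.6%. Unloaded libraries were apart from the other 6 in all 3 shares, with a larger share of Bcl2 and Mcl1 and a smaller share of Bcl2l1. The 3 shares are parts of 1 sum, so they are not separate results. Among single genes tested, 37.7% did not overlap between unloaded mice and ground controls, and 20.3% between 4-PBA and unloaded mice. How often ratios or shares of other genes set these groups apart was not computed. In contrast, the ratio of effectors (Bax and Bak1) to the survival sum overlapped, at 0.588 to 0.788 in ground controls, 0.300 to 0.855 in unloaded mice and 0.470 to 0.725 with 4-PBA. The Bax to Mcl1 log2 ratio also overlapped, with -0.047 to 0.35 in ground controls and -1.34 to 0.0027 in unloaded mice. The effector ratio leaves out Bok, so it does not describe all effectors. Bok was at 7.45 to 9.03 FPKM in ground controls, 27.1 to 50.3 FPKM in unloaded mice and 7.75 to 14.5 FPKM with 4-PBA.

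**Figure D3:**
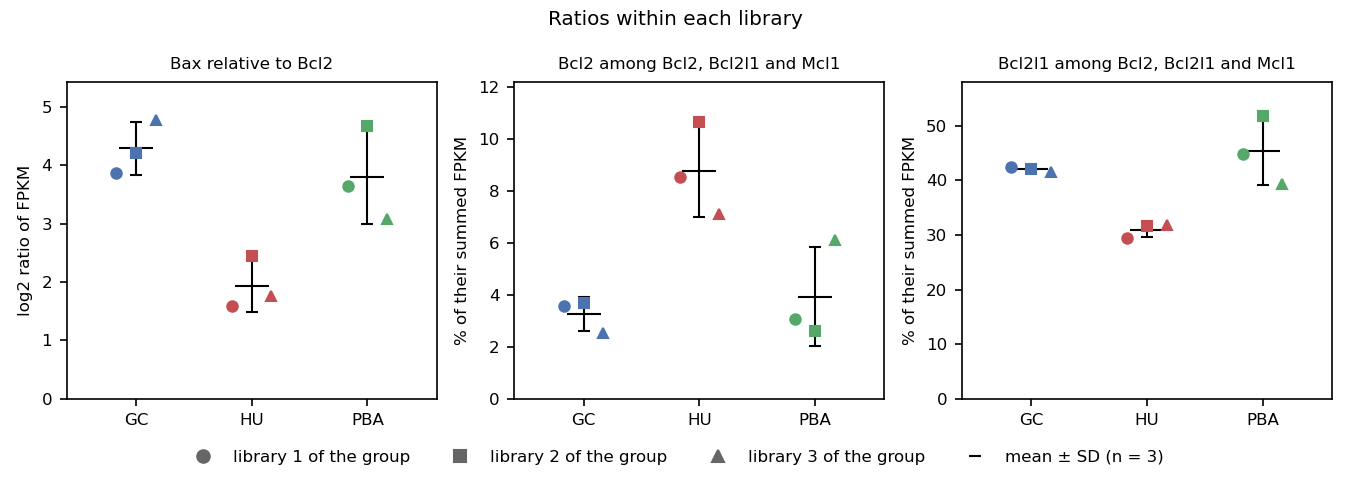
Ratios that do not depend on scaling between libraries: log2 of Bax over Bcl2 (left), and the percent of the summed FPKM of Bcl2, Bcl2l1 and Mcl1 taken by Bcl2 (middle) and Bcl2l1 (right), by library, with mean and SD (n = 3). The 3 unloaded libraries stand apart from the other 6 in each panel, and PBA3 is the treated library nearest to them.

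In the comparison of 4-PBA with vehicle during unloading, no member passed (0 of 9; 2.69% of all genes tested passed, 1.16% as higher and 1.53% as lower, and limma-voom on recovered reads called 1, Bcl2). Bcl2 alone had an unadjusted p under 0.05. Unloaded mice had a mean of 3.48 ± 0.942 FPKM and treated mice 1.35 ± 0.674 FPKM (SD, n = 3 each), a difference of -0.95 ± 0.29 (SE; 95% interval -1.59 to -0.31; limma adjusted p = 0.115), and all 3 treated libraries were below all 3 unloaded ones. It was the only member of the 9 whose groups did not overlap here, where 20.3% of all genes tested did not (10.1% higher, 10.2% lower). Without PBA3 the difference was -1.17 (limma adjusted p = 0.0321), and with limma-voom on recovered reads it was -1.67 on the log2 scale of reads (adjusted p = 0.0345). Over 19 alternatives the limma adjusted p ran from 0.0321 to 0.527, and all differences were negative. Differences of the other members were -0.91 for Bak1, -0.44 for Mcl1, 0.093 for Bad, 0.27 for Pmaip1, 0.29 for Bid, 0.31 for Bcl2l1, 0.40 for Bax and 0.44 for Bbc3, with limma adjusted p from 0.254 to 0.869. The same unloaded libraries enter this comparison and the first, so the opposite signs of Bcl2, Bak1, Mcl1, Bax and Bid in the 2 comparisons are not independent.

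Between treated unloaded mice and ground controls no member passed (0 of 9 in limma, 0 at an unadjusted p under 0.05 and 0 with limma-voom; 0% of all genes tested passed, with 165 at an unadjusted p under 0.05). The differences ran from -0.33 (Bid) to 0.55 (Bbc3). Bcl2 had 0.26 with a 95% interval of -0.38 to 0.90, and Bax -0.033 with -0.67 to 0.61. Bcl2l1 was the 1 tested member whose groups did not overlap, at 13.5 to 16.7 FPKM with 4-PBA against 11.6 to 12.1 FPKM (difference 0.34; 95% interval -0.21 to 0.89; limma adjusted p = 1.00), where 8.00% of all genes tested did not overlap (4.37% higher, 3.63% lower). These intervals do not show that the groups are alike.

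Of 15 other family genes 8 were tested, and 2 changed with unloading, 1 in each direction, where 10.2% of all genes tested did. Bok, the effector-like member held to be less bound by survival proteins than Bax and Bak1, was at 8.27, 9.03 and 7.45 FPKM in GC1 to GC3, 50.3, 28.6 and 27.1 FPKM in HU1 to HU3 and 13.8, 7.75 and 14.5 FPKM in PBA1 to PBA3. All unloaded libraries were above all others. Its difference was 1.92 ± 0.32 for unloading (SE; limma adjusted p = 0.0133) and -1.47 ± 0.32 for 4-PBA against unloaded (SE; limma adjusted p = 0.0466). The first held in 15 of 19 alternatives (limma adjusted p 0.00520 to 0.232). It was lost with scaling to total reads (0.91, adjusted p = 0.232), after adjustment for mitochondrial share (adjusted p = 0.0909) and when GC1 or GC3 was left out (adjusted p = 0.0682 and 0.0627). The second held in 5 of 19 (limma adjusted p 0.0218 to 0.492), and was lost when any 1 library other than PBA3 was left out. Per unit length, Bok was 0.367 to 0.560 times Bax in ground controls and 1.65 to 3.70 times Bax in unloaded mice, so the order of these transcripts was inverted within the libraries, and with 4-PBA it was 0.376 to 0.955 times Bax.

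Bik, a BH3-only protein of the endoplasmic reticulum, moved the other way. It was at 5.26, 6.09 and 5.80 FPKM in GC1 to GC3, 0, 1.82 and 2.50 FPKM in HU1 to HU3 and 4.88, 5.45 and 5.34 FPKM in PBA1 to PBA3. The unloaded values rest on 0, 9 and 27 reads, and 0 reads in HU1 allow up to 0.316 FPKM (3 reads). The difference was -1.65 ± 0.41 for unloading (SE; limma adjusted p = 0.0373) and 1.54 ± 0.41 for 4-PBA against unloaded (SE; limma adjusted p = 0.0856). When scaled to total reads the unloading difference was -2.29, but that scaling also moved the median of all genes tested, from -0.033 to -0.78. The unloading call was lost in 12 of 19 alternative settings (limma adjusted p 0.0116 to 0.167 over all 19), among them limma-voom (adjusted p = 0.0740) and leaving out GC1, GC2, GC3, PBA1 or PBA2. Unlike Bcl2, Bik in PBA3 was at the level of PBA1 and PBA2.

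**Figure D4:**
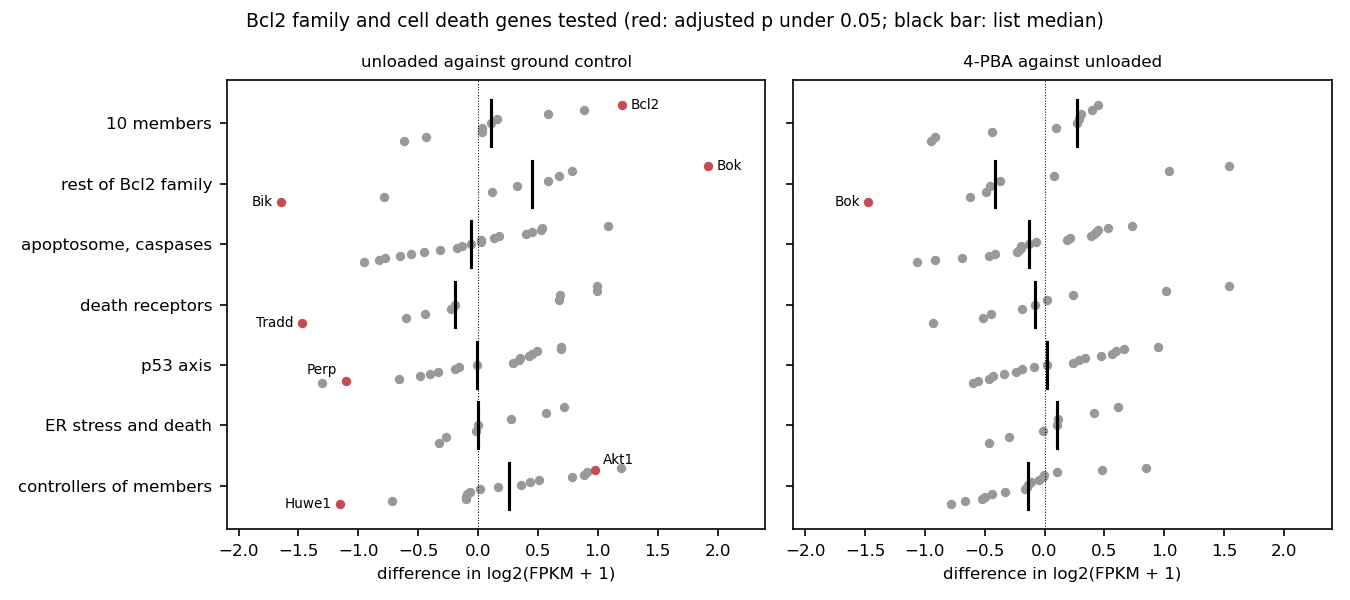
Differences in log2(FPKM + 1) of every tested gene in 7 lists of Bcl2 family and cell death genes (points), for unloaded against ground control and for 4-PBA against unloaded; red and named marks a limma adjusted p under 0.05, and the black bar is the list median. Of the red points, Bcl2, Bok and Akt1 are higher in unloaded mice and Bik, Tradd, Perp and Huwe1 lower, and the medians lie between -0.20 and 0.45 in the left panel.

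Downstream of the family, none of 19 tested genes of the apoptosome, caspases and their inhibitors passed in limma (4 with an unadjusted p under 0.05 for unloading and 2 for 4-PBA against unloaded; limma-voom called 1, Xiap, and 0). The list median was -0.062 for unloading. The smallest p belonged to Xiap, a direct inhibitor of caspases (2.66 ± 0.454 to 7.17 ± 3.26 FPKM, SD, n = 3 each; difference 1.08, limma adjusted p = 0.0611) and to Dffb, the nuclease that cuts DNA in apoptosis (1.49 ± 0.322 to 0.309 ± 0.338 FPKM, SD, n = 3 each; -0.95, limma adjusted p = 0.0782). In the death receptor list 1 of 9 passed, near the 10.2% of all genes tested. It was the adaptor Tradd, which fell, with 0, 9 and 19 reads in HU1 to HU3 (4.21 ± 1.04 to 1.02 ± 0.881 FPKM, SD, n = 3 each; -1.47, limma adjusted p = 0.0389, limma-voom adjusted p = 0.0945). Cflar, the inhibitor of caspase-8, had 0.68 (limma adjusted p = 0.0840). Among 17 genes of the p53 axis 1 passed, below the share over all genes. Perp, a membrane protein, fell (27.6 ± 4.00 to 12.3 ± 2.15 FPKM, SD, n = 3 each; -1.11, limma adjusted p = 0.0457, limma-voom adjusted p = 0.0630). Mdm4, an inhibitor of p53, had -1.30 (limma adjusted p = 0.0521). Limma-voom called 2 genes of this list, 1 lower (Mdm4, adjusted p = 0.0431) and 1 higher (Rrm2b, named for this call), and the list median was -0.0067.

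Of 7 tested stress genes tied to cell death none passed for unloading in limma or limma-voom (1 with an unadjusted p under 0.05; list median 4.06e-05). Ppp1r15a, which reverses the translation block, had 0.72 (limma adjusted p = 0.110) and Ern1, the sensor IRE1, 0.57 (limma adjusted p = 0.297). Of 16 genes that control family members 2 passed, near the 10.2% of all genes tested. Akt1, the kinase that phosphorylates Bad, rose (9.70 ± 0.364 to 20.1 ± 1.74 FPKM, SD, n = 3 each; 0.98, limma adjusted p = 0.0334), but had -0.019 with scaling to total reads. The median of all genes tested was -0.78 with that scaling. Huwe1, a ubiquitin ligase of Mcl1, fell (5.72 ± 1.87 to 2.03 ± 0.873 FPKM, SD, n = 3 each; -1.16, limma adjusted p = 0.0441). Limma-voom called 4 genes of that list, 3 higher and 1 lower: Akt1 and Huwe1, and Foxo3 and Usp9x, named for this call. When single libraries were left out, Akt1 and Perp passed only without PBA2 or PBA3, and Huwe1 and Tradd only without HU2 or PBA3. In 4-PBA against unloaded, Bok was the only gene of these 7 lists to pass.

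Markers of other cell types moved with the same groups. The sum of 8 stromal markers was 38.2 to 93.4 FPKM in ground controls, 145.7 to 296.3 FPKM in unloaded mice and 35.0 to 393 FPKM with 4-PBA. The sum of 7 endothelial markers was 72.6 to 109.9, 229 to 309.9 and 80.5 to 167 FPKM, and that of 9 lymphocyte markers 2.91 to 3.56, 9.98 to 19.0 and 4.84 to 15.1 FPKM in the same order. All 3 sums were higher in every unloaded library than in every ground control, but not all their markers were. Most of the endothelial sum in unloaded mice came from Eng (101 to 145 FPKM) and Plvap (82.3 to 156 FPKM). Pecam1, Cdh5, Kdr, Emcn and Tek overlapped between unloaded mice and ground controls. Acta2, a stromal and smooth muscle marker, was at 21.9 to 54.1 FPKM in ground controls and 11.9 to 18.8 FPKM in unloaded mice (-1.11, limma adjusted p = 0.273). Most of the lymphocyte sum in unloaded mice came from the T cell genes Cd3g (2.46, 11.4 and 4.37 FPKM) and Trac (6.45, 2.75 and 3.31 FPKM). With unloading, 5.32% of all genes tested rose and 4.90% fell. Among markers, 1 of 8 stromal, 2 of 7 endothelial and 1 of 4 tested lymphocyte markers rose. In contrast, 7 of 10 proximal tubule, 1 of 6 loop of Henle and distal tubule and 1 of 7 collecting duct markers fell.

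The sum of 6 loop of Henle and distal tubule markers was lower in every unloaded library (139 to 278 FPKM) than in ground controls (323 to 524 FPKM). It was 175 to 759 FPKM under 4-PBA. Umod and Slc12a1 made up most of it in ground controls and unloaded mice. Only Slc12a1 and Slc12a3 were lower in every unloaded library than in every ground control. Umod, Kcnj1, Calb1 and Pvalb overlapped, and in HU3 Calb1 (75.7 FPKM) and Pvalb (20.8 FPKM) were above every ground control. The remaining sums overlapped between unloaded mice and ground controls. They were, for ground controls, unloaded mice and 4-PBA, 168 to 189, 109 to 274 and 182 to 323 FPKM for collecting duct, 47.4 to 68.5, 26.3 to 65.7 and 60.7 to 122 FPKM for macrophages, and 1.99 to 4.16, 0 to 17.1 and 0.702 to 5.63 FPKM for neutrophils. For urothelium they were 2.36 to 20.4, 7.58 to 46.1 and 31.6 to 160.4 FPKM, and for adipocytes 8.53 to 384, 13.0 to 16.3 and 9.62 to 403 FPKM. Nkg7, Retnlg, Krt5 and Lep were at 0 in all unloaded libraries, and no stromal, endothelial or proximal tubule marker was at 0 in any library. Each of the former was also at 0 in GC3, and they had at most 36, 6, 123 and 10 reads in any library. With fewer reads in unloaded libraries, these values do not show absence. The part of these cell types in the values of Bcl2, Bok and Bik was not tested.

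For the 3 tested members whose group means of log2(FPKM + 1) differed most, Bcl2, Bak1 and Bid, the protein-coding genes of most similar profile were looked up among 10927 others by Pearson correlation of log2(FPKM + 1) over the 9 libraries, as a description. For Bcl2 they were Rapgef5 (0.992), Pcbp2 (0.988) and Lpar1 (0.988), for Bak1 Tspyl4 (0.952), Patl1 (0.947) and Pkd2 (0.936), and for Bid Pdp2 (0.976), Slc25a15 (0.968) and Hykk (0.968). Lpar1, a lysophosphatidic acid receptor, had a mean of 0.928 FPKM in ground controls, 9.59 FPKM in unloaded mice and 2.07 FPKM with 4-PBA. Between members, the highest correlation of Bcl2 was with Mcl1 (0.821) and its most negative with Bid (-0.651). These are over the same 9 libraries, which share their scaling and the groups.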

How the data were processed

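The authors deposited 1 table of kidney RNA values, 1 column per library. Messenger RNA was selected with poly-T beads, copied into dUTP-marked libraries and read from both ends, per the labels' protocols. CASAVA, cutadapt, HISAT2 and build mm10 are named, without versions, per the submitters' processing notes, while the sources used here do not name the read counter, its strand setting or its annotation. The deposited values behave as FPKM, since each times the deposited gene length was a whole multiple of 1 constant per library, which does not follow total reads (100% of values, tolerance 0.01). Reads so recovered totalled 7595631 to 15141784 per library. No 2 libraries agreed within sampling noise. Gene coordinates equal those of GENCODE mouse release 21 for 98.3% of genes.

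Differences were fitted with limma 3.58.1 (R 4.3.3) on log2(FPKM + 1), with 9 libraries in 1 fit of 3 groups and a variance trend, for the 12642 genes that reached 1 FPKM in 3 or more libraries. P-values were adjusted by Benjamini-Hochberg over all of them, with a threshold of 0.05. The code was tested on simulated data. Members and lists were chosen with earlier results of these data known. All 10 members are named, and of each other list the genes with the smallest p for unloading, here 2, a limit set after the values were seen (up to 4 were planned). Intervals are 95%. Figures used Python 3.11.15 and matplotlib 3.10.9.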

Additional observations from a re-analysis of the deposited data

How the results depend on the processing

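Over 19 alternative settings and 27 comparisons of members, 513 values were compared. Of these, 485 kept their side of the threshold without a turn in direction beyond 1 SE of the fit, and 47 changed sign at all. Only Bcl2 for unloading was called in the fit as reported, so nearly all of these values had no call to lose. That call was lost in 11 of the 19 settings. Members called for unloading fell from 1 to 0 without a filter on low values, with scaling to total reads, with the mitochondrial share as a covariate and with the replicate block, and ranged from 0 to 1 when 1 library was left out. For 4-PBA against unloaded the number rose from 0 to 1 with limma-voom and without both PBA3 and GC3, and ranged from 0 to 1 with 1 library left out. Over all genes tested, those called for 4-PBA against unloaded numbered 147 higher and 193 lower, 2 and 15 when only those libraries entered the fit, 3 and 14 without a filter, 553 and 96 with scaling to total reads and 672 and 648 without PBA3. On recovered reads limma-voom called 845 higher and 479 lower for unloading and 128 and 321 for 4-PBA against unloaded. For unloading, 48 rose and 51 fell with the covariate and 139 and 99 without a filter. No pairing by the numbers in the titles was seen. Most of those numbers differ from the ones in the deposited column names, which were not used for this check or for the replicate block. The correlation of deviations was -0.196 to 0.288 for same-numbered libraries and -0.334 to 0.310 for the others. With 3 libraries a group, this check cannot decide whether libraries were paired. The replicate block called 0 members in each comparison.

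The differences that turned follow, and none passed the threshold in the setting named. The cause was not tested. Scaling to total reads also moved the median of all genes tested, to -0.78 for unloading and 0.71 for 4-PBA against unloaded. With scaling to total reads, unloading gave -0.93 for Bcl2l1, -0.42 for Mcl1, -0.92 for Bad, -0.17 for Cflar, -0.063 for Ppp1r15a and -0.019 for Akt1 (called in the fit as reported), and 4-PBA against unloaded gave 0.48 for Mcl1, 0.085 for Xiap, 0.28 for Cflar, 0.28 for Ppp1r15a, 0.25 for Ern1 and 0.42 for Akt1. With the mitochondrial share as a covariate, unloading gave 0.64 for Bid and -1.05 for Bbc3, and 4-PBA against unloaded -0.85 for Bid and -0.46 for Pmaip1. With limma-voom, unloading gave -0.94 for Bbc3 and -0.72 for Pmaip1. In 4-PBA against ground control, Bcl2 had -0.035 and Bid 0.25 without both PBA3 and GC3, and Bid 0.36 without PBA3. Pmaip1 had -0.34 for unloading without HU3, and Ern1 0.081 for 4-PBA against unloaded without HU1. When 1 library was left out, these 3 values ranged from -0.77 to 0.36 for Bid, -0.34 to 0.60 for Pmaip1 and -0.62 to 0.081 for Ern1. Low read numbers limit Bbc3, Pmaip1, Bik, Tradd and Dffb, each with 0 reads in HU1. HU2 had reads of each, although it had fewer reads outside the mitochondrial genome (1568888, against 2550139 in HU1). Why these genes were at 0 in HU1 was not tested.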
